A study of Mus musculus with 35 samples.

Results

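Trimethylation of lysine 36 on histone H3 (H3K36me3) normally follows RNA polymerase II through genes, yet in germinal vesicle (GV) oocytes it also lies between them. The set described here is the H3K36me3 between genes that c34 oocyte-like cells, grown from embryonic stem cells, share with GV oocytes from mice. Members were 10 kb bins of autosomes 1 to 19, more than 10 kb from every protein-coding gene on GRCm38, that lay wholly within peaks of both the c34 and the GV H3K36me3 lists, and adjacent bins were joined. The rule found 15229 of 111108 eligible bins, or 13.7%, which joined into 2697 regions of 152.29 Mb in all. The members were thus chosen by the H3K36me3 peaks of c34 and GV, whose presence there is not a result.

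The study profiled H3K4me3, H3K27me3 and H3K36me3 by CATCH-seq, a native chromatin immunoprecipitation in which micrococcal nuclease cuts the chromatin and carrier DNA limits losses from small samples. The c7 oogonia-like cells and the c13 and c34 oocyte-like cells were derived from H18 mouse embryonic stem cells, a line with fluorescent reporters of the germ cell genes Prdm1 (mVenus) and Dppa3 (ECFP). E18 denotes E18.5 fetal oocytes of mice carrying both reporters, and GV denotes oocytes from BDF1 mice. All groups were labelled wild type. Donor numbers, any pooling of animals and the age of the GV donors are not stated in the sources used here. H3K36me3 had 2 libraries at each of c13, c34, E18 and GV, H3K27me3 had 2 at each stage but 1 in GV, and H3K4me3 had 4 in c13, 2 in c34, 2 at E18 and 1 in GV. Each stage and mark had 1 deposited peak list, so no difference below could be set against replicate spread and none was tested. Peak lists carry no depth, and the lists differed in covered length, from 898.1 Mb in c34 and 947.92 Mb in GV to 1107.92 Mb in c13 and 586.59 Mb at E18 for H3K36me3. H3K4me3 marked 6 of 6 germ cell and oocyte genes (Ddx4, Dazl, Figla, Nobox, Zp3, Gdf9) at c13, c34, E18 and GV, and 3 to 5 of 6 ovarian somatic genes; the part of somatic cells in the values below was not tested.

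As background, H3K36me3 is deposited mainly by SETD2 as polymerase II elongates, and it recruits the de novo DNA methyltransferase DNMT3A with DNMT3L in growing oocytes. It opposes H3K27me3, the mark of Polycomb repressive complex 2, and H3K4me3, which marks promoters and also forms broad domains between genes in mature oocytes. Transcription in growing oocytes often starts outside annotated promoters, including at transposable elements, and can run for long distances through DNA with no annotated gene.

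Members held 78 of the 1136 annotated miRNA genes on autosomes. Such genes lay in 0.269% of member bins and in 0.145% of all eligible bins. Of the 78, 72 had mature sequences in RefSeq (GRCm38.p6), giving 120 mature miRNAs. Of these, 41 genes lay in the imprinted Dlk1-Dio3 locus on chromosome 12 and 31 elsewhere. The sequences below show what the shared regions carry there: 3 seed-sharing pairs from the Dlk1-Dio3 cluster, the let-7 pair on chromosome 15, 2 miRNAs from Mir100hg, and miR-31 and miR-6368 from regions with no coding gene in their peaks. Capitals mark the seed, bases 2 to 8, read 5′ to 3′.
miR-379-5p (chr12:109709065-109709085, plus strand): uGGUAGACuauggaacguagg
miR-1193-5p (chr12:109715716-109715735, plus strand): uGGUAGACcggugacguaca
miR-379-3p (chr12:109709102-109709123, plus strand): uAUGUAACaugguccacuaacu
miR-411-3p (chr12:109710225-109710246, plus strand): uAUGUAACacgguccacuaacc
miR-376c-5p (chr12:109722733-109722754, plus strand): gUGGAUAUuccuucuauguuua
miR-376b-5p (chr12:109723471-109723492, plus strand): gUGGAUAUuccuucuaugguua
let-7c-5p (chr15:85706616-85706637, plus strand): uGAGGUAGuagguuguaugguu
let-7b-5p (chr15:85707325-85707346, plus strand): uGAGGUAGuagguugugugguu
miR-100-5p (chr9:41531437-41531458, plus strand): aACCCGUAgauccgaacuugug
miR-125b-5p (chr9:41581940-41581961, plus strand): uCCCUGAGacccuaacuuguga
miR-31-5p (chr4:88910614-88910635, minus strand): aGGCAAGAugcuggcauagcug
miR-6368 (chr13:28710796-28710816, minus strand): cUGGGAAGcaguggaggggag
Across the 120 mature sequences, 10 seeds were shared by 2 differently named miRNAs each, and 7 of these pairs lay in the Dlk1-Dio3 locus. The 120 count miR-683 from 2 genes and lack some arms, such as the 5p arm of let-7a-2. The seed counts therefore hold only for the sequences available. The other 3 seeds were those of the 5p and the 3p arms of let-7c-2 and let-7b, and of miR-6368 and miR-6404, which lie on different chromosomes.

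The next sequences are promoters of long non-coding RNA (lncRNA) genes that start inside members. Shown are the 5 start sites with H3K4me3 in c34 and GV, and in neither c13 nor E18, that had the longest stretch of member downstream, followed by Meg3, the maternally expressed lncRNA of the Dlk1-Dio3 locus. Each window runs from 250 bases before to 50 after the RefSeq start (GRCm38.p6), 5′ to 3′ along the gene's strand. Both strands were searched for 3 motifs, and capitals mark a match. The first was CAGGTG, an E-box of the kind bound by helix-loop-helix factors. The second was TAATTG, of the kind bound by homeodomain factors such as NOBOX. The third was the core promoter element TATAAA.
Gm41416 (chr16:5483615-5483914, plus strand): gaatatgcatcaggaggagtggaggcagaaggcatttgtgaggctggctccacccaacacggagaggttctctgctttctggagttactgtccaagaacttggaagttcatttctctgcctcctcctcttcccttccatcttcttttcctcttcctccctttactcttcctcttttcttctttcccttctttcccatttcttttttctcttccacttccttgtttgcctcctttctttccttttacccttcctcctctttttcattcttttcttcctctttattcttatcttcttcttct
Gm17746 (chr12:25128924-25129223, plus strand): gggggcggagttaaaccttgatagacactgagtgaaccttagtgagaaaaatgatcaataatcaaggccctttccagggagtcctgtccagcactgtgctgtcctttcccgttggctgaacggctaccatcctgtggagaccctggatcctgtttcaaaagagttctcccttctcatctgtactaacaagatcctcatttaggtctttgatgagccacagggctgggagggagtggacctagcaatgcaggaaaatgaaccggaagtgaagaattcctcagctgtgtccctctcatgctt
7420700N18Rik (chr8:31367499-31367798, plus strand): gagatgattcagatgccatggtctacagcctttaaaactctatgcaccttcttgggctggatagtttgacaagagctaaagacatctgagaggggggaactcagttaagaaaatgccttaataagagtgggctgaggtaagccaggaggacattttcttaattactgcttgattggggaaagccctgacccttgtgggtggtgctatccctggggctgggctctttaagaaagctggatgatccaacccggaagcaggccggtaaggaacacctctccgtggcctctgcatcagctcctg
4930500H12Rik (chr16:73072096-73072395, plus strand): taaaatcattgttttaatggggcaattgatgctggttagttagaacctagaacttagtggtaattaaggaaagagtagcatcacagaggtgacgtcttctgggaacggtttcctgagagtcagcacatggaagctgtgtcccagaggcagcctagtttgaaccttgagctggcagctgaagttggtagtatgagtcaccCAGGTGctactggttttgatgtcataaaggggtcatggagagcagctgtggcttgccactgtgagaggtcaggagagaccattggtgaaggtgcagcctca
Gm30551 (chr13:103707584-103707883, minus strand): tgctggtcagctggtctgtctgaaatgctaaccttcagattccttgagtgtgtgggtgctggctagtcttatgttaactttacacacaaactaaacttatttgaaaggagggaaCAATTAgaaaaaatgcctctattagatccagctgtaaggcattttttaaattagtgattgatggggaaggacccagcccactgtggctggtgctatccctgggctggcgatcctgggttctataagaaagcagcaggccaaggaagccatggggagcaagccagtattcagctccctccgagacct
Meg3 (chr12:109540746-109541045, plus strand): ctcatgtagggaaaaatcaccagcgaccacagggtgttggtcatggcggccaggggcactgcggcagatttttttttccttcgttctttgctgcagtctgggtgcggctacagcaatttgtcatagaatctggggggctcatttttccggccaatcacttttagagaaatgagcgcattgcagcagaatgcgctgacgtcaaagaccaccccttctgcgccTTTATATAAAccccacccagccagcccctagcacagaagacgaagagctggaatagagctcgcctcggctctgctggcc
Gm41416 had 386.135 kb of shared H3K36me3 downstream of its start, Gm17746 had 380.826 kb, 7420700N18Rik had 292.251 kb, 4930500H12Rik had 267.654 kb and Gm30551 had 257.633 kb. The 5 windows held 1 to 4 CpG dinucleotides, and the Meg3 window held 13. The E-box was found in 1 of the 5 (4930500H12Rik), the homeodomain motif in 1 (Gm30551), and overlapping matches of the core promoter element on opposite strands in Meg3. Among all 32851 promoters of the table, 20.2% held the E-box, 8.00% the homeodomain motif and 13.6% the core promoter element on either strand. Of the 215 lncRNA promoters in members with H3K4me3 in both c34 and GV 31.6% held the E-box, 10.7% the homeodomain motif and 14.4% the core promoter element. Of the 492 in members with H3K4me3 in neither list, the shares were 16.7%, 10.2% and 19.1%. A match shows only that these letters stand in the window.

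The 2697 regions ran from 10 to 730 kb, with a median of 30 kb and quartiles of 20 and 70 kb. A single bin made up 585 regions (21.7%), while 430 regions (15.9%) reached 100 kb and held 48.8% of the member length. Bins in the c34 list alone joined into 1536 regions with a median of 20 kb, of which 4.17% reached 100 kb. Bins in the GV list alone joined into 2018 regions with a median of 30 kb, of which 9.71% did. The mean was 56.5 kb for shared regions, 32.4 kb for c34 alone and 42.6 kb for GV alone, while the medians of shared and GV-only regions were equal and the longest c34-only region, at 740 kb, exceeded the longest shared one. Of the eligible bins within the c34 list, 75.4% were shared with GV, and of those within the GV list, 63.9% were shared with c34. Each chromosome held members, from 8.20% of eligible bins on chromosome 3 to 17.995% on chromosome 11.

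In 936 regions (34.7%, exact 95% binomial interval 32.9% to 36.5%, counting error over regions only) neither the c34 nor the GV peak touched a protein-coding gene anywhere along its length. These are called gene-free below. In 1558 regions (57.8%) both peaks ran on into a coding gene, in 95 only the c34 peak did and in 108 only the GV peak. Gene-free regions had a median of 50 kb and those genic in both lists 30 kb, but the margin of 10 kb around coding genes cuts the genic ones short. With only peaks of at least their list's median width, 14.5% of regions were gene-free. The median gap of gene-free regions to the nearest coding gene was 156 kb, against 13.6 kb for the genic ones, and 595 of them lay over 100 kb away. The share of bins covered in both lists fell with distance from coding genes: it was 50.9% in bins that touch a gene, 25.6% within 10 kb of one, 20.0% just beyond that limit at 10 to 20 kb, 15.6% at 100 to 200 kb and 5.30% beyond 500 kb.

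**Figure D1:**
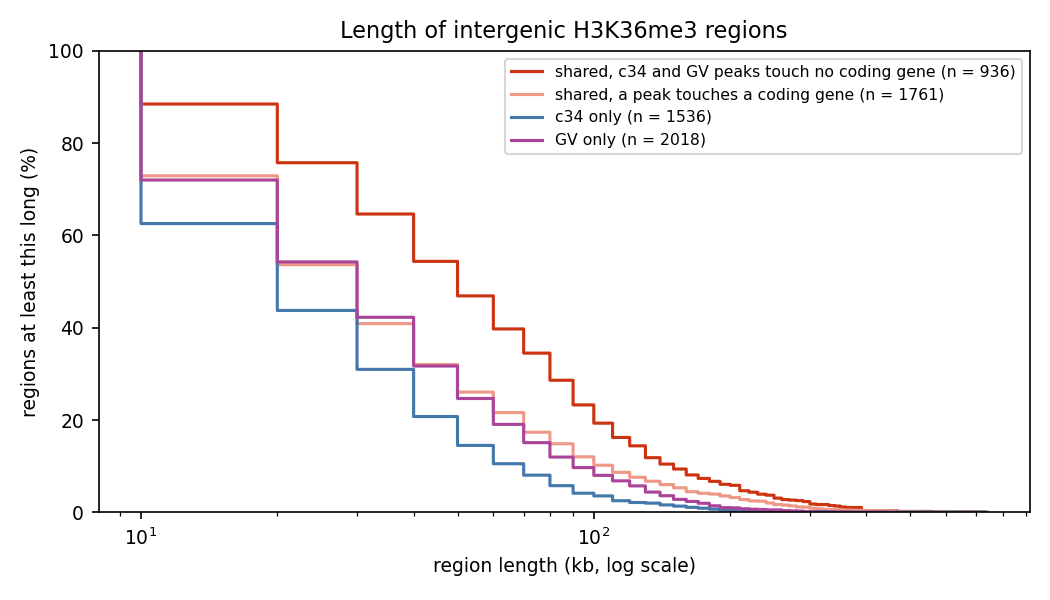
Share of regions (percent, vertical axis) at least as long as the value on the horizontal axis (kb, log scale), for shared regions whose peaks touch no coding gene (n = 936), other shared regions (n = 1761), and regions in the c34 list alone (n = 1536) or the GV list alone (n = 2018). The gene-free shared regions lie above the other curves, with a median of 50 kb.

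The longest region was gene-free and covered 730 kb at chr15:62010001-62740000, from 19.6 kb past Myc, the proto-oncogene transcription factor, to 1036 kb short of Gsdmc. It held all 222 kb of Pvt1, a lncRNA gene next to Myc, and 2 further non-coding genes. No part of it carried H3K36me3 in c13 or at E18. H3K27me3 covered 71.2% of it in c7, 47.9% in c13, 26.0% at E18, 20.5% in c34 and 0% in GV. No H3K4me3 peak lay within 5 kb of an end in any list, but the margin around Myc set the left end. Counted from that end, both H3K36me3 peaks began at -10 kb, and an H3K4me3 peak ended at -13 kb in c34 and in GV. The H3K36me3 border on that side thus had H3K4me3 close by in both lists. The next gene-free region spanned 560 kb at chr1:75670001-76230000, beginning 111 kb from the anion exchanger gene Slc4a3 and ending 1137 kb from Epha4, an ephrin receptor. It too had no H3K36me3 in c13 or at E18, while H3K27me3 covered 100% of it at both stages, 7.14% in c34 and 0% in GV. A gene-free region of 470 kb at chr13:28440001-28910000, which ends 38.9 kb from the transcription factor gene Sox4, had 100% H3K36me3 cover in c13 and at E18 as well. It encloses 2610307P16Rik, a lncRNA gene of 425 kb, and Mir6368. The 3 longest gene-free regions thus fell into opposite early states.

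Of the 10 longest regions, 3 were gene-free and 7 had a peak that ran into a coding gene. Of the 7, 5 had full or nearly full H3K36me3 cover in c13 and none at E18. They were the 600 kb region between Eef2kmt and the neuronal splicing factor gene Rbfox1 (chr16:5270001-5870000, 100% in c13), the 520 kb region between Eipr1 and Myt1l (chr12:28880001-29400000, 100%), the 450 kb region beside the tensin gene Tns3 (chr11:7970001-8420000, 88.9%), the 450 kb region beside Kazn (chr4:142250001-142700000, 100%) and the 400 kb region beside Id2, an inhibitor of helix-loop-helix factors (chr12:25110001-25510000, 100%). The 460 kb region between B020011L13Rik and Tsn (chr1:117820001-118280000) had 0% in c13 and 19.6% at E18. The 460 kb region beside Rasgef1b (chr5:99270001-99730000) had 0% at both stages and held the lncRNA gene A930011G23Rik whole, which spans 432 kb. The Tns3 region was the longest with no annotated non-coding gene, a choice made after its values were seen. H3K27me3 covered none of 8 of these 10 regions in GV, the exceptions being the Eipr1 region at 26.9% and the Id2 region at 42.5%.

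**Figure D2:**
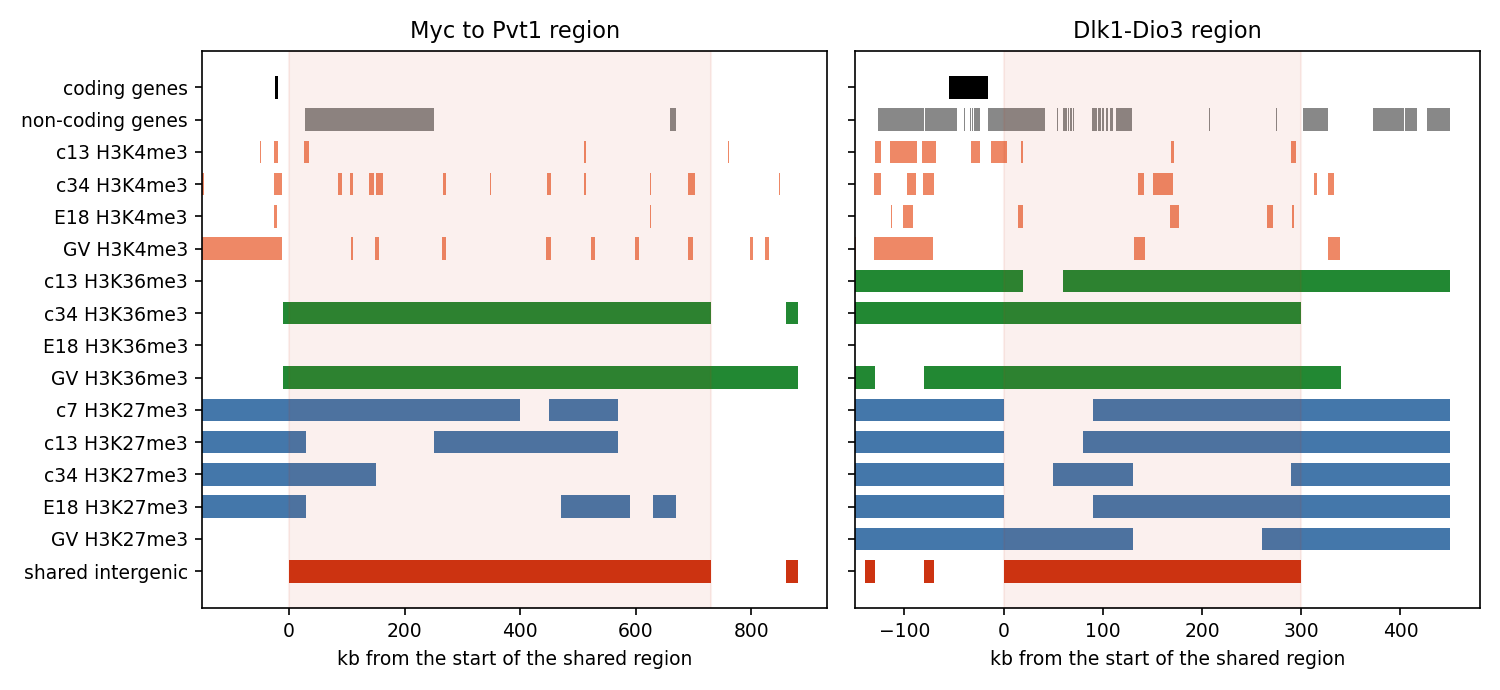
Peaks of all 13 lists and annotated genes over the longest shared region, beside Myc (left), and the main shared region of the Dlk1-Dio3 locus (right), in kb from the start of the shared region, whose 730 kb and 300 kb are shaded. Bars are peaks of H3K4me3 (orange), H3K36me3 (green) and H3K27me3 (blue); the left region has no c13 or E18 H3K36me3, and the right one has c13 but no E18 H3K36me3.

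The state of the members before c34 and GV was read from the c13 and E18 lists, which the rule did not use. H3K36me3 covered at least 50% of the length of 1509 regions (56.0%, interval 54.1% to 57.8%) in c13 and of 962 regions (35.7%, interval 33.9% to 37.5%) at E18. Over all eligible bins the shares were 29.8% in c13 and 25.3% at E18. Counted by bin, members had 52.1% cover in c13 against 24.9% for bins in neither the c34 nor the GV list, and 33.6% against 22.3% at E18. The c13 share was higher in members on 19 of 19 autosomes and the E18 share on 17 of 19. In c13 the difference was 27.2 percentage points, and at E18 it was 11.3. Bins in the c34 list alone had 36.5% in c13 and 37.3% at E18, and bins in the GV list alone had 34.2% and 31.9%. Members were thus the highest class in c13, while at E18 they lay below c34 alone and near GV alone.

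H3K36me3 had been in the c13 list but not the E18 list over 36.7% of member bins. It was in E18 but not c13 over 18.3%, and in both over 15.3%. Over all eligible bins these shares were 21.1%, 16.5% and 8.74%, so the share in E18 but not c13 was near its background. That share was 26.4% in bins of the c34 list alone and 20.5% in bins of the GV list alone. In neither of the earlier lists lay 29.7% of member bins, 4519 in all, against 59.9% of bins outside c34 and GV H3K36me3. By region, counted for members only, 1029 (38.2%) had at least 90% cover in c13 and under 10% at E18, and 425 (15.8%) had the opposite. At both stages 394 (14.6%) had at least 90%, and 584 (21.7%) had under 10% at both. The last group summed to 34.23 Mb with a median of 40 kb, and 323 of its regions were gene-free. Besides the Myc, Slc4a3 and Rasgef1b regions, its 5 longest included 390 kb beside Lratd1 (chr12:14270001-14660000), which had no H3K27me3 at any of the 5 stages, and 390 kb between Klf4 and Actl7b (chr4:56300001-56690000), which had 100% H3K27me3 cover in c13 and in GV, and 0% at E18. Among the 394 with cover at both stages, the longest were the Sox4 region, 390 kb between Tex29 and A230072I06Rik (chr8:11870001-12260000) and 300 kb between the homeobox gene Meis1 and Spred2 (chr11:19190001-19490000).

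The width of the c13 peaks bears on these counts. Peaks of 1 Mb or more supplied 79.8% of the c13 cover of members, and without them the cover was 10.5% in members and 5.58% in bins of neither list. At E18 such peaks supplied 33.3%, and without them the cover was 22.4% against 16.5%. Gene-free and genic members also differed: c13 H3K36me3 covered 32.9% of gene-free and 69.1% of genic member bins, while E18 H3K36me3 covered 36.1% and 31.4%. The c13 value fell with distance from coding genes in members and other bins alike. At 10 to 20 kb it was 71.0% in members and 45.7% in bins of neither list, at 100 to 500 kb it was 41.9% and 20.5%, and beyond 500 kb it was 6.54% and 2.28%. The E18 value changed less in members, from 32.7% at 10 to 20 kb to 27.8% beyond 500 kb, where bins of neither list had 9.15%. Members exceeded bins of neither list in each of the 4 distance classes at both stages.

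**Figure D3:**
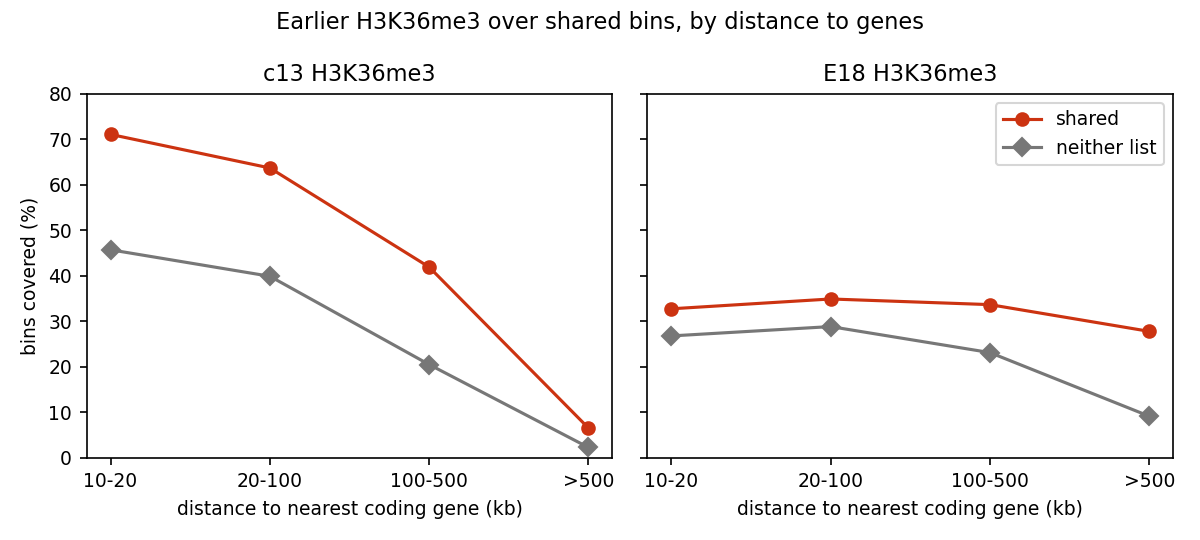
Share of 10 kb bins (percent, vertical axis) covered by H3K36me3 in c13 (left) and at E18 (right) for shared bins and bins in neither the c34 nor the GV list, by distance to the nearest coding gene (kb, horizontal axis). Shared bins lie higher in every class; in c13 they fall from 71.0% to 6.54%, and at E18 from 32.7% to 27.8%.

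H3K27me3 was above the level of other intergenic bins in c13 and below it in c34 and GV. In c13 it covered 55.5% of member length against 31.4% of bins in neither H3K36me3 list, and in c7 45.8% against 33.1%, both higher on 19 of 19 autosomes. At E18 it covered 54.5% against 45.7%, higher on 15 of 19. Distance from coding genes bears on the c7 and E18 values. At 10 to 20 kb, E18 H3K27me3 covered 48.9% of members and 51.0% of bins in neither list, at 20 to 100 kb 56.4% and 55.1%, and at 100 to 500 kb 57.3% and 50.7%. The c7 values were 49.1% and 47.5% at 10 to 20 kb, and 44.7% and 31.7% at 100 to 500 kb. In c13 members were higher in each of the 4 distance classes, with 66.9% against 53.4% at 10 to 20 kb. In c34 it covered 25.7% against 40.7%, and in GV 11.3% against 38.6%, both lower on 19 of 19 and in each distance class. Over all eligible bins the shares were 35.5% in c7, 35.8% in c13, 47.5% at E18, 38.5% in c34 and 32.9% in GV. At least 50% of the length carried H3K27me3 in 1209 regions (44.8%) in c7, 1524 (56.5%) in c13, 1397 (51.8%) at E18, 786 (29.1%) in c34 and 314 (11.6%) in GV.

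Both marks lay over 43.0% of member bins in c13, H3K36me3 alone over 9.09%, H3K27me3 alone over 12.5% and neither over 35.4%. At E18 the shares were 18.3%, 15.3%, 36.2% and 30.2%. Over all eligible bins the shares in the same order were 24.7%, 5.13%, 11.1% and 59.1% in c13. At E18 they were 14.4%, 10.8%, 33.1% and 41.7%. The share with H3K27me3 alone in members was thus near its background at both stages. Bins in neither late H3K36me3 list had both marks over 20.7% in c13 and 13.1% at E18. Of the bins with c13 H3K36me3, 82.5% also had H3K27me3 in members, 83.3% in bins of neither late list and 82.8% over all eligible bins, so this pairing was no higher in members. At E18 the shares were 54.4%, 58.7% and 57.1%. Marks of separate lists in the same 10 kb bin need not lie on the same nucleosomes or in the same cells. Bins in the c34 list alone had 33.8% H3K27me3 in GV, and bins in the GV list alone had 40.9% in c34, close to the 40.7% of bins in neither list.

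**Figure D4:**
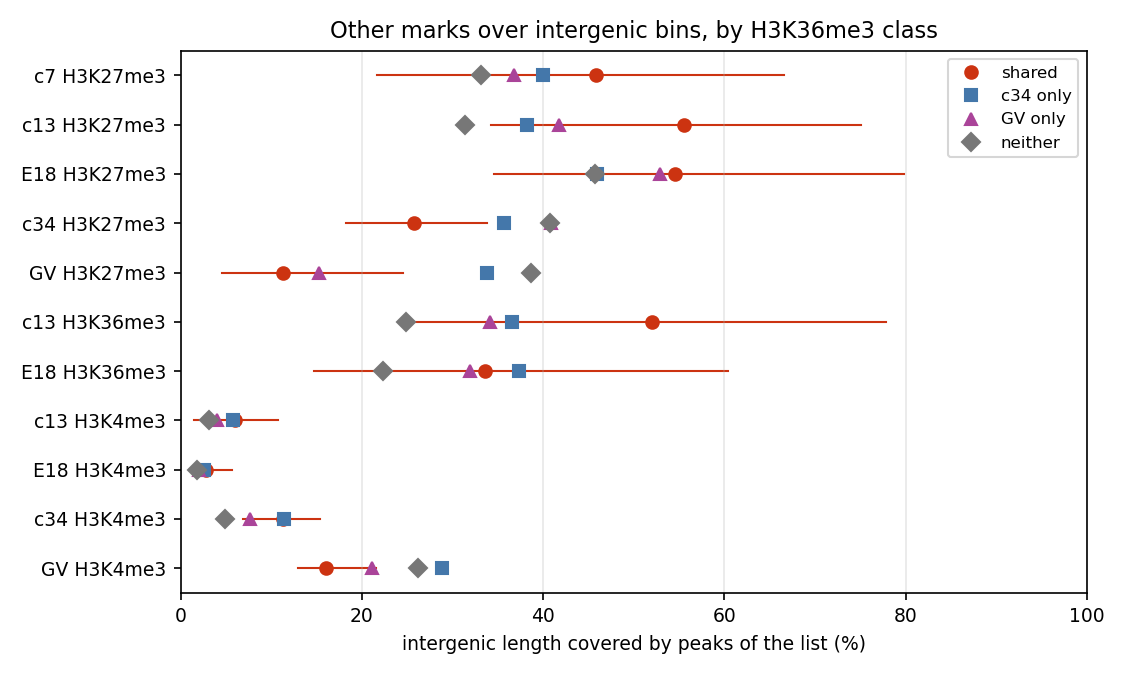
Share of intergenic length (percent, horizontal axis) covered by the peaks of each other list (rows), for bins in both H3K36me3 lists (shared), in c34 alone, in GV alone and in neither. Red lines give the lowest to highest value of the shared bins over 19 autosomes; shared bins have more c13 H3K27me3 (55.5%) and less GV H3K27me3 (11.3%) than bins in neither list.

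H3K4me3 lay at the ends of many regions in c34 and GV. A peak was within 5 kb of at least 1 end in 1698 regions (63.0%, interval 61.1% to 64.8%) in c34 and in 1936 (71.8%, interval 70.04% to 73.48%) in GV, but in 764 (28.3%) in c13 and 445 (16.5%) at E18. Counted by end, the shares of the 5394 ends were 40.3% in c34, 51.5% in GV, 18.4% in c13 and 9.42% at E18. Borders of all eligible bins gave 15.6% in c34, 35.4% in GV, 9.63% in c13 and 5.76% at E18. Positions inside members gave 22.5% in c34, 25.7% in GV, 12.99% in c13 and 7.47% at E18. The end share was the highest of the 3 in c34 and GV. In c13 and at E18 it was the highest too, but there the ends not set by a gene margin had shares on either side of the value inside members, given next.

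Ends differ in what set them. At 1329 ends both H3K36me3 lists stopped, at 1090 only the c34 list, at 765 only the GV list, and at 2210 the margin around a coding gene set the end. Where both lists stopped, H3K4me3 lay within 5 kb of 46.7% of ends in c34 and 63.9% in GV. Where only c34 stopped the shares were 27.4% and 34.6%, and where only GV stopped they were 40.3% and 54.8%. The c13 shares at these 3 kinds of end lay between 11.9% and 14.9%, against 25.8% at gene margins and 12.99% inside members. The E18 shares were 7.37% where both lists stopped, 5.60% where c34 stopped and 8.24% where GV stopped, against 12.9% at gene margins and 7.47% inside members. Ends of gene-free regions at which both lists stopped had 44.6% in c34 and 59.1% in GV.

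Around the 1329 ends where both lists stopped, the stages had different profiles. In c34, H3K4me3 formed a narrow rise that reached 27.7% at 1.5 kb outside the end, averaged 26.6% over the 5 kb outside and 19.5% over the 5 kb inside, and was 9.16% at 30 to 50 kb outside. In GV it was broad outside, at 46.1% from 30 to 50 kb, 53.1% in the last 5 kb and at most 61.2% at 9.5 kb outside, and it dropped to 27.5% in the first 5 kb inside and 12.4% from 30 to 50 kb inside. In c13 and at E18 the profiles stayed at or below 7.75% and 4.67%, with no rise at the end. Inside positions came from the regions long enough to hold them, 600 ends at 50 kb.

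**Figure D5:**
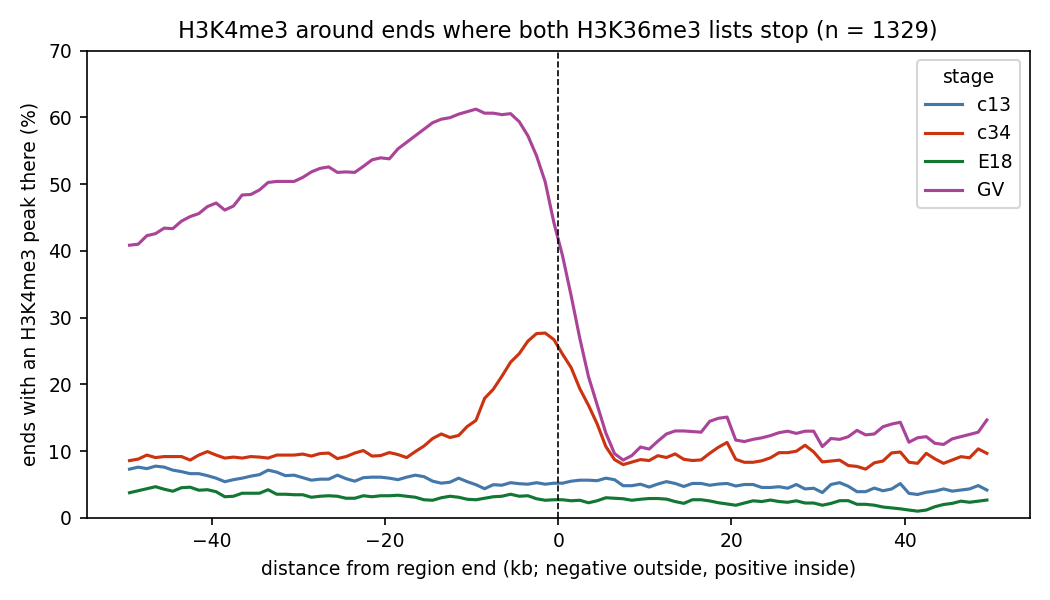
Share of the 1329 ends at which both H3K36me3 lists stop (percent, vertical axis) with an H3K4me3 peak at each 1 kb position, against distance from the end (kb; negative outside, positive inside). The c34 line peaks at 27.7% just outside the end, the GV line is broad outside with at most 61.2% and falls inside, and the c13 and E18 lines are flat and low.

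Joint counts of ends over several lists were made for members only, so no background stands beside them. At 1531 regions (56.8%) the same end had H3K4me3 in c34 and in GV, and 368 (13.6%) had it at both ends in both lists. An end with H3K4me3 in c34 and no end with it in c13 or at E18 was found in 1057 regions (39.2%), 294 (10.9%) had an end with it in all 4 lists, and 533 (19.8%) had none in any. The longest with H3K4me3 at both ends in c34 and GV were all gene-free. They covered 390 kb short of the adhesion receptor gene Adgrb1 (chr15:73860001-74250000), 350 kb short of Nrg1, which encodes neuregulin, a ligand of ErbB receptors (chr8:31310001-31660000), 340 kb beyond Cntnap4 (chr8:113130001-113470000), 330 kb short of Grin2a, an NMDA receptor subunit (chr16:9040001-9370000), and the 300 kb Meis1 region. Neither end of the Adgrb1, Grin2a or Meis1 region had H3K4me3 in c13 or at E18. The Nrg1 region had it at 1 end at both of these stages, and the Cntnap4 region at 1 end in c13. Over whole members, H3K4me3 covered 11.3% in c34 against 4.94% of bins in neither H3K36me3 list, higher on 19 of 19 autosomes. In GV it covered 16.0% against 26.2%, lower on 19 of 19. Bins in the c34 list alone had 11.4% in c34 and 28.9% in GV, and bins in the GV list alone had 7.60% and 21.1%. The c34 cover of members was thus no higher than that of c34 alone, while their GV cover was the lowest of the classes.

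Non-coding genes or pseudogenes overlapped 1541 regions (57.1%, interval 55.2% to 59.0%), and lncRNA genes overlapped 1067 (39.6%). Annotated non-coding genes filled 21.9% of the member length. Longer regions held one more often: 36.9% of single bins and 80.5% of regions of 100 kb or more. The 1156 regions without one had a median of 20 kb. Counted by bin, which takes out length, 24.8% of member bins held a lncRNA gene, against 14.6% of bins in neither list and 16.5% of all eligible bins. Any non-coding gene lay in 32.3% against 20.7%, with 23% of all eligible bins.

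The 2815 non-coding genes that touched members comprised 1563 lncRNA genes, 864 pseudogenes, 168 small nucleolar RNA (snoRNA) genes, 78 miRNA genes, 65 small nuclear RNA genes, 25 tRNA genes, 33 receptor gene segments and 19 of other kinds. The lncRNA genes lying wholly inside members with the longest overlap were A930011G23Rik (432 kb), 2610307P16Rik (425 kb) and Mir100hg (239 kb), the host of miR-100, let-7a-2 and miR-125b. Mir100hg lay in a gene-free region of 300 kb (chr9:41340001-41640000) with no H3K36me3 in c13 or at E18, 100% H3K27me3 cover at both, 26.7% in c34 and 0% in GV. Other named genes wholly inside included Bmncr (29.2 kb), with no c13 or E18 H3K36me3, and Platr11 (45.2 kb) near Eomes, with 100% cover in c13 and 0% at E18. Of the immune receptor loci, Igh held 231 kb of members in 2751 kb and Igk 100 kb in 3171 kb. Igl held 140 kb in 234 kb and Tcrb 90 kb in 667 kb, while Tcra and Tcrg held none. Receptor gene segments lay in 0.184% of member bins, below the 0.347% of all eligible bins. The autosomes hold 9496 pseudogenes and 1286 snoRNA genes in all. Pseudogenes lay in 7.09% of member bins against 5.79% of all eligible bins, and snoRNA genes in 0.676% against 0.459%. For small nuclear RNA genes the shares were 0.433% and 0.356%, and for tRNA genes 0.0919% and 0.0729%.

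Start sites of 844 lncRNA genes with a known strand lay in members. H3K4me3 was within 1 kb of 30.7% of them in c34, 24.8% in c13, 12.1% at E18 and 36.5% in GV. Over the 4321 lncRNA start sites in all eligible bins the shares were 20.3%, 19.2%, 9.4% and 43.2%. The c34 share of members was thus above and the GV share below the background. Starts in bins of the c34 list alone had 33.2% in c34 and 53.0% in GV, and those of the GV list alone had 22.1% and 40%. The c34 share of members was therefore not above that of c34 alone. In members, both c34 and GV marked 215 of the starts, and 51 had H3K4me3 in all 4 lists. At 131 it was in c34 and in neither c13 nor E18, and 416 had it in none. These joint counts were made for members only, so no background stands beside them. Of the 215, 125 (58.1%) had more member downstream than upstream, with medians of 28.6 kb downstream and 18.1 kb upstream. Of the 492 starts with it in neither c34 nor GV, 47.6% had more downstream. Promoters marked in all 4 lists held a median of 8 CpG dinucleotides in 300 bases, those marked in c34 and GV but not in c13 or at E18 held 4, those marked in none held 3, and all promoters of the table held 7.

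Imprinted clusters carried much of the small RNA. The Dlk1-Dio3 locus had a 300 kb member (chr12:109620001-109920000) between Rtl1 and Dio3 that held 65 non-coding genes, among them 40 miRNA and 19 snoRNA genes, Mirg whole and part of Rian. A separate 10 kb member (chr12:109540001-109550000) held the start of Meg3. In c13, H3K36me3 covered 86.7% of the 300 kb member, and at E18 0%. H3K27me3 covered 73.3% of it in c13, 70% at E18, 30% in c34 and 56.7% in GV. The 72 miRNA genes with sequences, including all 41 of the locus, had c13 H3K36me3 at 62 and E18 H3K36me3 at 10. Outside the locus, 21 of 31 had it in c13, 10 at E18 and 6 at both. Genes in the same member are not separate cases. Over all member bins, H3K36me3 cover was 52.1% in c13 and 33.6% at E18, and over all eligible bins 29.8% and 25.3%. The E18 count outside the locus was near the member share. The let-7b and let-7c-2 region (chr15:85680001-85720000) had 100% H3K36me3 cover in c13 and 0% at E18.

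Snhg14, the host of the brain-expressed snoRNA arrays between Ube3a and Snrpn, had 3 members with E18 but little c13 H3K36me3. They were 130 kb with 48 snoRNA genes (chr7:59670001-59800000; 15.4% in c13, 100% at E18), 110 kb with 18 snoRNA genes of the Snord116 kind (chr7:59860001-59970000; 0% and 63.6%) and 10 kb with 4 (chr7:59340001-59350000; 0% and 100%). The first had H3K27me3 over 100% in c34 and GV and 0% in c7, in c13 and at E18, the opposite order to the members as a whole. These snoRNA genes are near-identical copies, and how reads matching several copies were placed is not given in the sources used here. Airn, the antisense lncRNA of Igf2r, had a 40 kb member (chr17:12780001-12820000) with 100% in c13 and at E18. Malat1, a nuclear lncRNA, had a 10 kb member (chr19:5790001-5800000) with 100% in c13 and 0% at E18. A member was touched by 12.6% of all lncRNA genes on autosomes. Of 26 on a list chosen with earlier results known, 8 touched one: Meg3, Rian, Mirg, Airn, Snhg14, Malat1, Pvt1 and the cardiac lncRNA Carmn. The other 18, H19 and Kcnq1ot1 among them, touched none.

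Coding genes near members were counted for 5 lists. A member lay within 100 kb of 25.5% of all coding genes, and of 36.6% of those with an eligible bin that near. Of 15 maternally methylated imprinted genes, 10 had one (13 had an eligible bin), at Peg3, Snrpn, Nnat, Zrsr1, Plagl1, Impact, Igf2r, Grb10, Zdbf2 and Gnas. Of 22 developmental regulators, 12 had one (21 eligible), from Pax2, a regulator of kidney development, 11.7 kb away, to Sox1, 85.5 kb away. Of 25 oocyte factors, 7 had one (12 eligible): Figla and Lhx8, transcription factors of the primordial follicle, Nlrp5, Nlrp14, Kit, Mos and Gja4. Of 23 meiosis genes, 5 had one (14 eligible), and of 16 genes of H3K36 and DNA methylation 4 did (9 eligible): the H3K36 methyltransferase gene Nsd2, Dnmt3b, Dnmt3l and Tet2. Against 25.5% of all coding genes, the shares were 28% for oocyte factors, 25% for H3K36 and DNA methylation and 21.7% for meiosis, all close to it. They were 66.7% for imprinted genes and 54.5% for developmental regulators. Of genes with an eligible bin, against 36.6%, the 5 shares were 58.3%, 44.4%, 35.7%, 76.9% and 57.1% in that order. The counts are small and no difference was tested.

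Where both peaks ran on from a member into a coding gene with known strand, the gene's 3′ end faced the member in 828 of 1672 cases (49.5%). It did so at 44.8% of sides where they did not run on, and at 44.7% around all runs of eligible bins. Members therefore joined gene ends and gene starts in nearly equal numbers.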

How the data were processed

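Libraries were those of the opening, and the 9 input libraries were not analysed here. The authors deposited 13 peak lists whose values are positions in base pairs (unit other, no score), per the file headers with starts from 0 and inclusive ends on a grid of 1 kb (H3K4me3) or 10 kb. The submitters' processing notes name the peak callers MACS2 2.1.1 and SICER 0.0.41, Bowtie2 2.3.4.1 with Trim Galore 0.4.1, and the builds mm10 and GRCm38.p3. The caller, threshold, input and pooling behind each list are not stated in the sources used here. Peaks lie at least 40 kb apart (4 kb for H3K4me3), so they bridge shorter gaps, and depth is unknown.

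Genes, start sites, strands and sequences came from RefSeq tables of GRCm38.p6; strand was known for 9291 of 12408 lncRNA and 16457 of 20665 coding genes on autosomes. Coordinates are 1-based on GRCm38. Bins run from position 0, and a bin counts as covered when wholly within peaks. Intervals are exact Clopper-Pearson. The members and lists were chosen with earlier results of these data known. Named regions were the 10 longest, the 5 longest gene-free, the 5 longest with H3K4me3 at both ends in c34 and GV, the 5 longest with under 10% and the 3 longest with at least 90% H3K36me3 in both c13 and E18; named non-coding genes were those with the longest overlap, named symbols wholly inside, and a list. The rule was tested on simulated data: 809 of 809 planted regions were recovered. Work used Python 3.11.15 with numpy 2.4.6 and pandas 2.3.3. Alternatives changed the distance, genes avoided, overlap, peak width, joining, minimum length, chromosome and windows. Chromosomes X and Y were left out.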

Additional observations from a re-analysis of the deposited data

Results flagged for a closer look

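H3K4me3 cover of shared bins differed in direction between the late stages: against bins in neither H3K36me3 list it was 6.32 percentage points higher in c34 and -10.2 points (lower) in GV, on 19 of 19 autosomes each. Bins in the c34 list alone had 11.4% cover in c34, near the 11.3% of shared bins, and 28.9% in GV, against 16.0% of shared bins. Those in the GV list alone had 7.60% and 21.1%. The difference between the stages was not tested, and the GV list covered 612.1 Mb of the autosomes against 253.1 Mb in c34.

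Chromosome X lies outside the rule. The same steps there found shared H3K36me3 in 8.20% of 10218 eligible bins, 168 regions and 8.38 Mb, with a median of 30 kb and a longest of 380 kb. The c34 list held 10.7% of eligible bins of X and the GV list 26.6%. Cover of these regions was 12.2% in c13 and 59.9% at E18. Over the pooled member bins of the autosomes the order was the opposite, at 52.1% and 33.6%. Single autosomes differed. Members had more cover at E18 than in c13 on chromosome 3 (42.8% against 24.7%), 13 (60.4% against 58.6%) and 14 (53.4% against 44.6%). On the other autosomes c13 was higher.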

How the results depend on the processing

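No paired analysis was possible because each stage and mark has 1 list, and leaving out a replicate was not possible for the same reason. Of 123 alternative values, 62 stayed within the main interval (for the number of regions, within 1.5 times) and 61 moved. Counting a bin on any overlap and bridging gaps of 1 bin gave the same regions, with 15 of the unchanged values each. This was fixed in advance and says nothing about stability. H3K36me3 peaks lie on a 10 kb grid at least 40 kb apart, and the margin around a gene takes out more than 1 bin. The cause of the moves was not tested.

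At more than 50 kb from coding genes there were 1349 regions with a median of 50 kb, 64.9% gene-free, 54.6% with a non-coding gene, c13 H3K36me3 in 41.9% and E18 H3K36me3 in 37.9%, H3K4me3 at an end in 17.4% (c13), 54.7% (c34), 10.4% (E18) and 63.8% (GV), and H3K27me3 over at least 50% of the length in 40.3% (c7), 46.3% (c13), 24.0% (c34), 54.1% (E18). Avoiding every annotated gene gave a median of 20 kb, 42.5% gene-free, 0% with a non-coding gene by construction, c13 H3K36me3 in 51.3%, H3K4me3 at an end in 22.0% (c13), 53.6% (c34), 13.1% (E18) and 61.2% (GV), and H3K27me3 over at least 50% of the length in 41.4% (c7), 52.4% (c13), 25.3% (c34). With only the wider peaks of each list (its median width or more) there were 1629 regions, 14.5% gene-free, 63.2% with a non-coding gene, c13 H3K36me3 in 64.4% and E18 H3K36me3 in 29.5%, H3K4me3 at an end in 24.3% (c13), 54.5% (c34), 13.8% (E18) and 60.8% (GV), and H3K27me3 over at least 50% of the length in 41.9% (c7), 25.1% (c34), 41.7% (E18), 8.96% (GV). Regions of 2 bins or more had a median of 50 kb, 39.2% gene-free, 62.7% with a non-coding gene and c13 H3K36me3 in 53.5%.

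An end window of 2 kb gave H3K4me3 at an end in 20.1% (c13), 46.9% (c34), 10.3% (E18) and 60.3% (GV), and one of 10 kb gave H3K4me3 at an end in 39.7% (c13), 75.8% (c34), 26.8% (E18) and 81.7% (GV). With any covered bin in place of 50% of the length, c13 H3K36me3 was in 57.8%, E18 H3K36me3 in 38.9% and H3K27me3 in 50.4% (c7), 58.7% (c13), 37.8% (c34), 55.3% (E18), 16.9% (GV). Without c13 peaks of 1 Mb or more, c13 H3K36me3 was in 12.3% of regions, below the E18 share, and without such E18 peaks E18 H3K36me3 was in 24.2%. Non-coding genes over at least 10% of the region lay in 38.2%. Without chromosome 1, which holds most member length, c7 H3K27me3 was in 46.9%. Depth is unknown, so how it limits the lists could not be read.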
